A study of Columba livia with 18 samples.

Results

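The genes described here encode the coats that shape transport vesicles: clathrin and its assembly protein PICALM, the 4 adaptor complexes AP-1 to AP-4, the dynamins, the ARF GTPases, and the COPI and COPII coats. Members were taken by gene symbol from the annotation of the deposited table, by a rule that used no expression value. The rule found 63 gene models under 52 symbols among the 20918 gene models of the series. SEC23IP, which encodes a protein that binds SEC23 and is no coat subunit itself, is among them because its symbol begins with SEC23. Several gene models, 20 in all, share 9 of the symbols, and these may be fragments of one gene or close copies, so reads could be divided among them. Such a gene model is given below with its identifier. Some coat genes, such as AP2A1, AP2S1, AP4M1, SEC23B and SEC31B, were matched to no gene model by symbol and are not analysed here.

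Coat proteins gather on a membrane, collect cargo and bend the membrane into a bud. Clathrin does this at the plasma membrane with AP-2 and at the trans-Golgi network and endosomes with AP-1, whereas COPII carries cargo from the endoplasmic reticulum to the Golgi and COPI returns it. In hair cells, endocytosis retrieves membrane after transmitter release at the ribbon synapse and also takes up material at the apical surface around the cuticular plate.

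The study asked how hair cells that hold a cuticulosome, an iron-containing body that birds form below the stereocilia, differ in gene expression from hair cells that lack one. Both groups came from the basilar papilla of the same 9 pigeons (Columba livia), aged 1 year, with no genetic alteration or treatment given in the labels, and the lagena had been removed. Under the microscope, 30 cells of each kind were picked by micropipette from every pigeon and pooled by kind, which makes 18 libraries. Each pool is thus a hand-picked sample of few cells, and a pigeon contributes 1 pool to each group. The pigeons were sequenced on 3 flow cells with 3 pigeons each: 433, 434 and 435 on the first, 450, 451 and 458 on the second, and 513, 514 and 515 on the third. Levels are FPKM (fragments per kilobase of transcript, scaled to the mapped reads of a library). They are scaled to length, and levels of different genes are set side by side below on that basis. How the amplification of the cDNA, the limit of 1 hit per read and the completeness of the gene models affect such comparisons was not tested.

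The table holds no read counts, so the counting error of single values is unknown. Depth relative to the mean library, read off the steps of the smallest FPKM, ranged from 0.526 in the pool with cuticulosomes of pigeon 450 to 1.45 in the pool without cuticulosomes of pigeon 451, and 2 of 9 pigeons were deeper in the pool with cuticulosomes. The hair cell markers differed widely in level: the synaptic calcium sensor OTOF (gene model CLIV_019819) had a mean of 1193 FPKM and the transduction channel gene TMC2 of 1039 FPKM. SLC17A8, GFI1 and LHX3 had means of 585, 377 and 168 FPKM, and the PCDH15 gene models 28.6 and 24.7 FPKM. CDH23 had 7.31 FPKM, TMC1 had 5.29 FPKM and was at 0 in 5 libraries, and OTOF (CLIV_015742) was at 0 in 16. MYO7A, POU4F3 and ATOH1 were not matched. CALB1, the highest of these markers, had a mean of 8826 FPKM and was at 0 in 1 library. It makes up most of the hair cell sums given here. The summed hair cell markers, of which 9 of 12 symbols were matched, reached 12238 ± 5637 FPKM with and 12269 ± 4824 FPKM without cuticulosomes (mean ± SD, n = 9; exact permutation test that flips the signs of the paired differences, two-sided, p = 0.723, adjusted p = 0.918 over 5 marker lists), with the lowest sum of 1328 FPKM in the pool with cuticulosomes of pigeon 435. The supporting cell markers (11 of 11 symbols matched) summed to between 112 and 1103 FPKM with and between 152 and 869 FPKM without cuticulosomes. TECTB made up most of their mean sum, with a mean of 399.7 FPKM, and was above 0 in all 18 libraries. TECTA (CLIV_009059), OTOG, OTOGL and LFNG were also above 0 in all 18 libraries. In contrast, SOX2 was at 0 in 13 of 18 libraries, PROX1 in 15 and GFAP in 17. The red blood cell markers (4 of 8 symbols matched) ranged from 503 to 4689 FPKM with and from 475 to 37323 FPKM without cuticulosomes, the highest in pigeon 435. The globin genes HBB (CLIV_015953) and HBAA, with means of 2093 and 1586 FPKM, made up most of their sum. SLC4A1 had a mean of 0.328 FPKM and was at 0 in 11 libraries, and GATA1 was at 0 in all 18. Over the 9 pigeons their sum was higher with cuticulosomes by 0.46 on the log2 scale (exact permutation p = 0.359, adjusted p = 0.918). Without pigeon 435, whose pool without cuticulosomes held the highest sum, it was higher by 0.89 (exact permutation p = 0.0234, unadjusted). Of the alternatives run for the 5 marker sums, 1 was stronger than the main result and 49 were the same. The 3 glia and myelin markers ranged from 0 to 1749 FPKM with cuticulosomes, again the highest in pigeon 435, and from 0 to 40.5 FPKM without. The 3 immune markers ranged from 1.26 to 723 FPKM with and from 0.195 to 751 FPKM without cuticulosomes. CD74 made up most of their sum, with a mean of 184 FPKM, and was above 0 in all 18 libraries. PTPRC and CSF1R were each at 0 in 11 libraries. In pools of cells, fewer cells of a type and less RNA per cell cannot be told apart.

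Of the 63 gene models, 58 had a mean above 1 FPKM over the 18 libraries and were tested, which is 92.1% of the members against 54.5% of all gene models. The 5 others were SEC16B and AP3B2 (CLIV_018177), at 0 FPKM in every library, AP3B2 (CLIV_021151) with a mean of 0.155 FPKM, COPZ2 with 0.699 FPKM and DNM3 (CLIV_000205) with 0.927 FPKM. The coat genes were well expressed in hair cells: the median of the members tested was 24.1 FPKM against 9.84 FPKM for all gene models tested, 43 members were above 0 in all 18 libraries, and 11 members, or 17.5%, had a mean above 100 FPKM, against 5.08% of all gene models. These 11 were COPE, CLTA, AP2M1, ARF1, CLTB, SAR1A, SEC13, AP3B2 (CLIV_018178), ARCN1, AP3M2 and COPB2. A further 20 members lay between 1 and 10 FPKM. Every member bears a symbol, whereas 16089 of the 20918 gene models do. The members were not compared with gene models that bear a symbol only. The spread between libraries was wide, with a median coefficient of variation of 76.7% over the members tested and of 93.2% over all gene models tested.

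**Figure D1:**
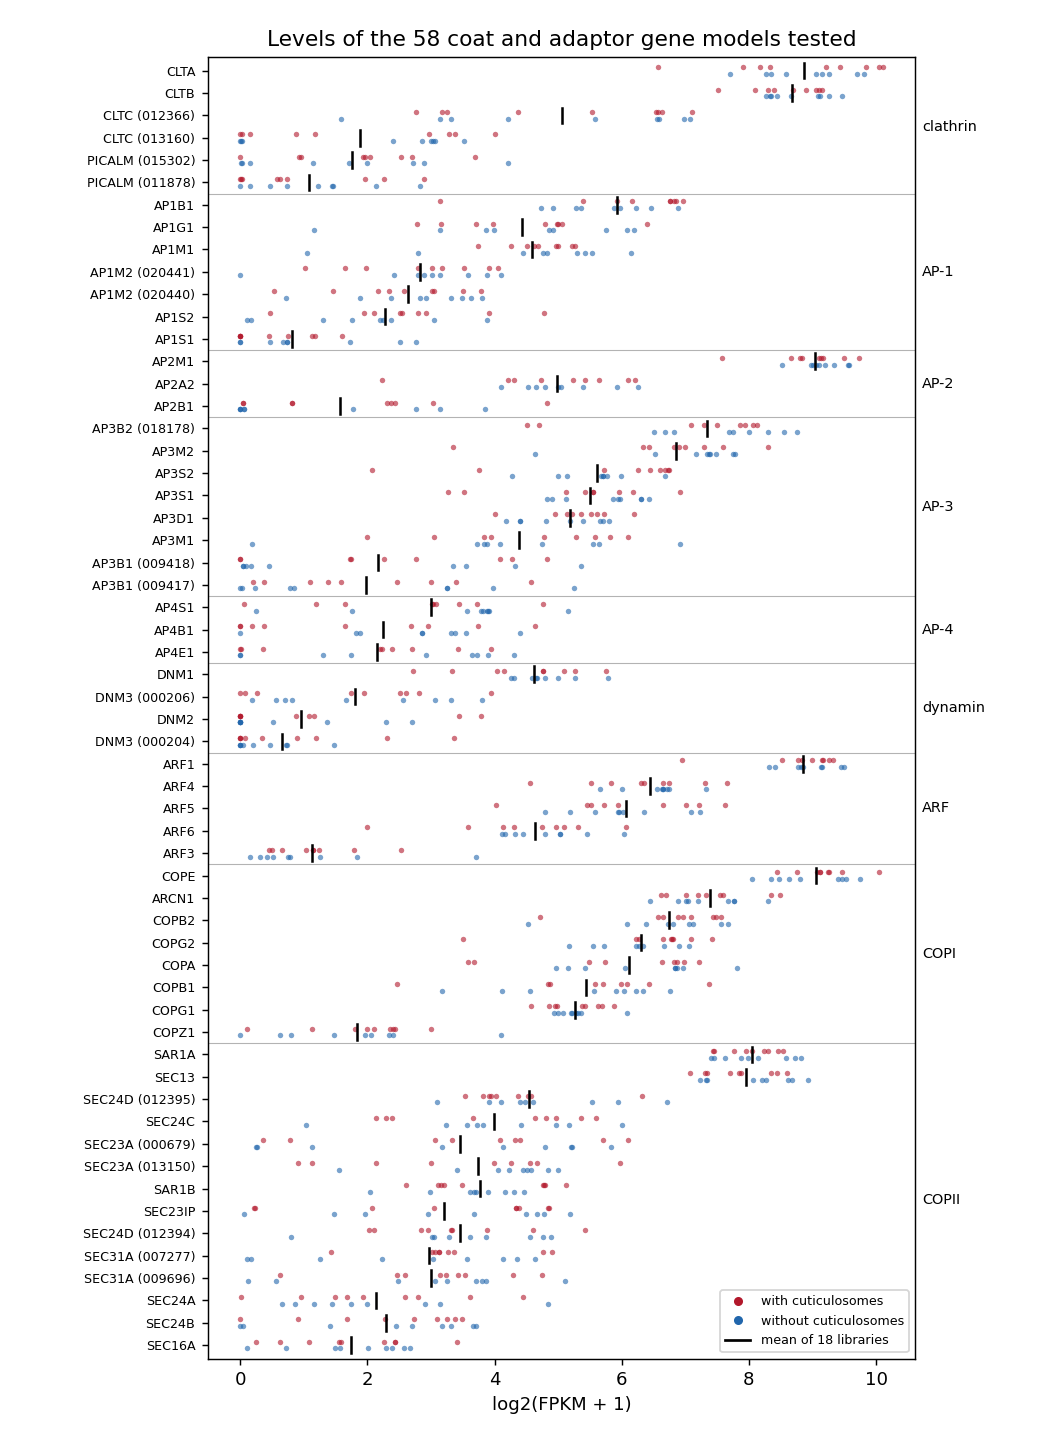
Levels of the 58 gene models tested, as log2(FPKM + 1) on the horizontal axis, grouped by coat and ordered by mean FPKM within a coat. Each point is 1 library, red with and blue without cuticulosomes (9 each), and the black bar is the mean of the 18 values. CLTA, CLTB, AP2M1, ARF1 and COPE lie furthest to the right, and red and blue points overlap in every row.

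No coat gene differed between hair cells with and without cuticulosomes after adjustment for all gene models tested. The comparison used limma on log2(FPKM + 1) with the pigeon as a block, fitted to all 11393 gene models with a mean above 1 FPKM, and a log2 fold change is the level with minus the level without cuticulosomes. At an unadjusted p below 0.05, 0 of 58 members were higher with cuticulosomes, where 372 of all gene models tested (3.27%) were, and 1 of 58 was lower, the adaptor subunit gene AP3B2 (CLIV_018178), where 229 (2.01%) were. After Benjamini-Hochberg adjustment, limma called 0 of 58 members and 0 of 11393 gene models (0%), and the smallest adjusted p was 0.902. Of the members, 27 had a log2 fold change above 0 and 31 below, with a median of -0.01 against 0.05 for all gene models tested. The estimates ran from -0.87 for AP4B1 to 0.77 for AP1S2, and 49 of the 58 (84.5%) lay within 0.5 of 0, compared with 66.7% of all gene models tested. These shares were not compared at matched levels of expression. The median width of the 95% confidence interval was 1.87 over the members and 2.12 over all gene models tested. The interval stayed within 1 of 0, or within a 2-fold change, for 21 members. For the other members a 2-fold difference in at least 1 direction lies inside the interval.

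**Figure D2:**
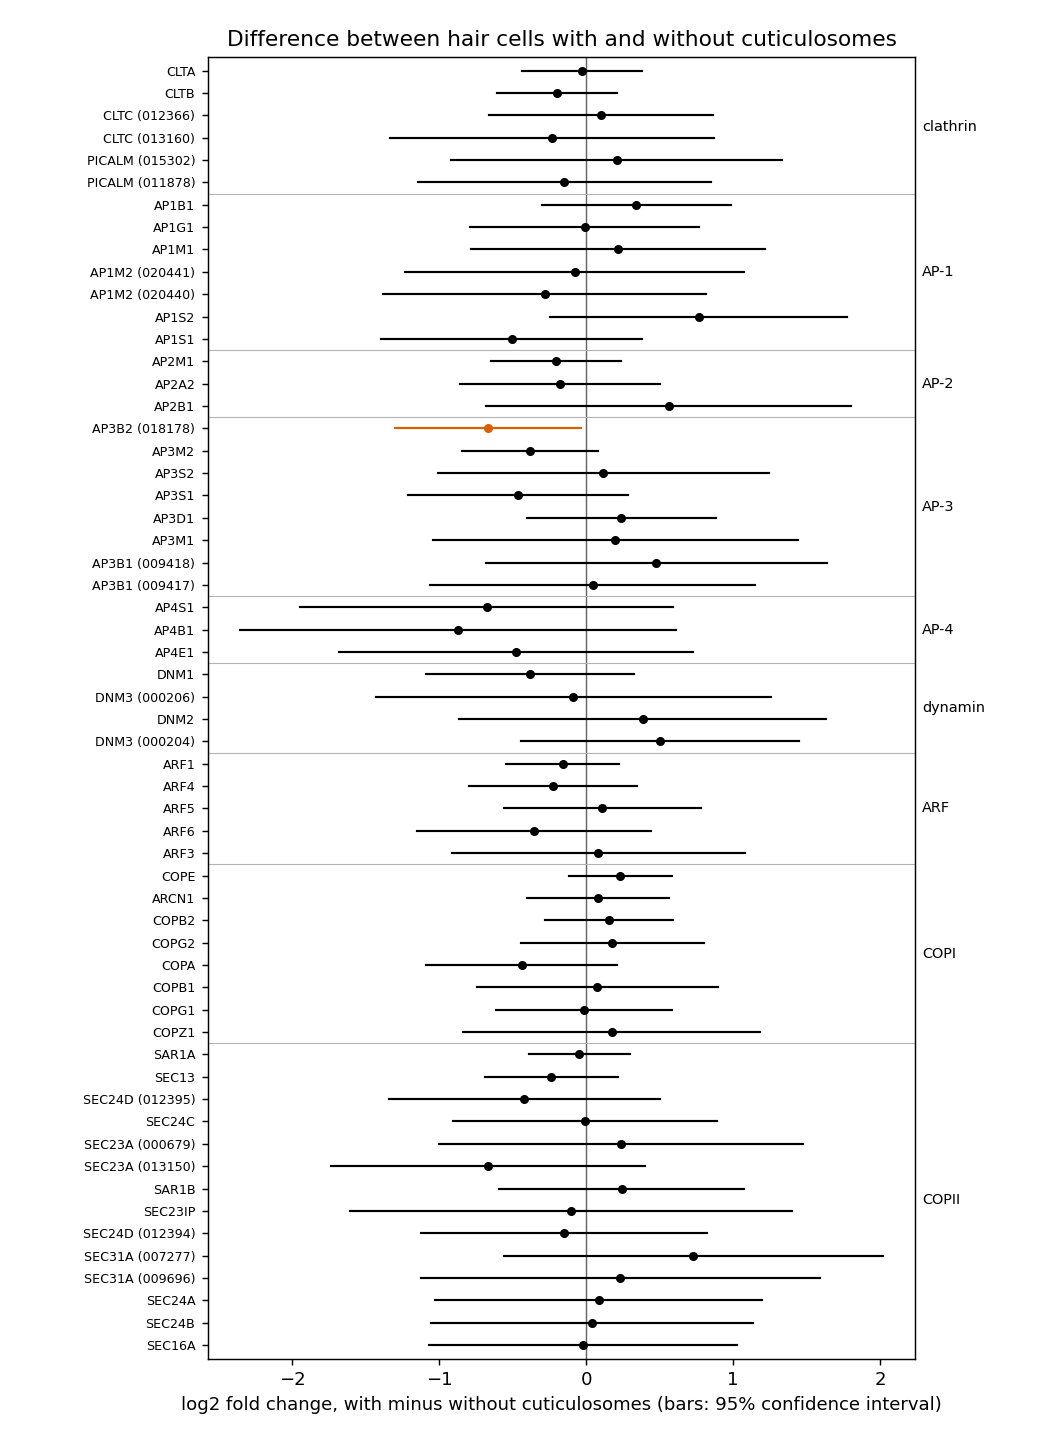
Log2 fold change of each gene model tested, with minus without cuticulosomes (n = 9 pigeons), with its 95% confidence interval from limma, grouped by coat as in the plot of levels. AP3B2 (CLIV_018178), in orange, is the member whose interval excludes 0 before adjustment, and the intervals are narrowest for the members with high levels, such as SAR1A and COPE.

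The clathrin light chains were among the most abundant members. CLTA, which encodes light chain A, had its lowest, median and highest value at 94.5, 592 and 1103 FPKM with cuticulosomes and at 206, 533 and 895 FPKM without. The 2 ranges overlapped almost wholly, and both groups had their lowest pool in pigeon 435. The log2 fold change of CLTA was -0.03 ± 0.19 (SE, n = 9; limma adjusted p = 0.990). Light chain B, CLTB, had a mean of 431 ± 140 FPKM (SD, n = 18) and was lower with cuticulosomes in 7 of 9 pigeons, with a log2 fold change of -0.20 (95% interval -0.61 to 0.21). The heavy chain gene CLTC, whose product forms the legs of the triskelion, was represented by a gene model at 57.7 ± 49.8 FPKM (CLIV_012366) and another at 4.72 ± 4.63 FPKM (CLIV_013160), both SD over 18 libraries. The 2 gene models of PICALM, which sizes clathrin pits and sorts the SNARE VAMP2 in mammals, had means of 3.84 FPKM (CLIV_015302) and 1.69 FPKM (CLIV_011878). None of these 6 clathrin gene models passed an unadjusted p of 0.05, their log2 fold changes lying between -0.23 and 0.21.

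AP-1 sorts cargo between the trans-Golgi network and endosomes. Its large subunit gene AP1B1 was the highest of the complex, with its lowest, median and highest value at 7.82, 107 and 124 FPKM with cuticulosomes and at 25.6, 58.0 and 117 FPKM without. AP1B1 was higher with cuticulosomes in 6 of 9 pigeons and the ranges overlapped, the pool with cuticulosomes of pigeon 450 being the lowest of all 18. Its log2 fold change was 0.34 ± 0.30 (SE, n = 9; limma adjusted p = 0.902), and without pigeon 450 it was 0.58, past the unadjusted threshold. The γ subunit gene AP1G1 had a mean of 29.5 FPKM and the medium subunit gene AP1M1 of 28.4 FPKM. AP1M2, a medium subunit confined to epithelia in mammals, was present through 2 neighbouring gene models on scaffold 1024, with means of 6.44 FPKM (CLIV_020440) and 7.76 FPKM (CLIV_020441). The small subunit genes were low, AP1S2 at 5.88 FPKM and AP1S1 at 1.15 FPKM. AP1S2 had the highest log2 fold change of all members, 0.77 (95% interval -0.25 to 1.78), and was higher with cuticulosomes in 7 of 9 pigeons. Its limma p was 0.129, and the exact sign-flip permutation over the 9 pigeons gave a two-sided p of 0.0273, both unadjusted.

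AP-2 is the adaptor of clathrin-mediated endocytosis. The gene of its medium subunit, AP2M1, which reads tyrosine-based sorting signals, had its lowest, median and highest value at 189, 548 and 849 FPKM with cuticulosomes and at 366, 548 and 760 FPKM without. The medians were nearly the same and the groups overlapped, and the lowest value was that of the pool with cuticulosomes of pigeon 450. The log2 fold change of AP2M1 was -0.20 ± 0.21 (SE, n = 9; limma adjusted p = 0.903). The α subunit gene AP2A2 had a mean of 36.8 FPKM and the β subunit gene AP2B1 of 4.34 FPKM, so that the means of the 3 AP-2 genes measured spanned 127-fold. AP2B1 was at 0 in 3 pools, all without cuticulosomes, yet its log2 fold change of 0.56 had an interval of -0.68 to 1.80.

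AP-3 carries membrane proteins from endosomes to lysosomes and related organelles, and in mammals the subunits encoded by AP3B2 and AP3M2 form a version of the complex found in neurons, where it also serves synaptic vesicles. AP3B2 (CLIV_018178, scaffold 1563) was the most abundant AP-3 gene, at 202 ± 112 FPKM (SD, n = 18). In pigeons 433, 434 and 435, its level was 268, 231 and 21.7 FPKM with cuticulosomes and 206, 256 and 112 FPKM without. In pigeons 450, 451 and 458, it was 25.1, 243 and 278 FPKM with cuticulosomes and 102, 432 and 374 FPKM without. In pigeons 513, 514 and 515, it was 180, 156 and 135 FPKM with cuticulosomes and 90.1, 215 and 316 FPKM without. AP3B2 was thus lower with cuticulosomes in 7 of 9 pigeons, all but 433 and 513, while the groups overlapped, and the lowest 2 pools were those with cuticulosomes of pigeons 435 and 450. The log2 fold change was -0.67 ± 0.30 (SE, n = 9; 95% interval -1.30 to -0.04; limma p = 0.0394, adjusted p = 0.902), and the exact sign-flip permutation over the 9 pigeons gave a two-sided p of 0.102.

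Among the fits without 1 pigeon, the AP3B2 difference shrank most without pigeon 435 or 450. Without pigeon 435 the log2 fold change was -0.46, without pigeon 450 it was -0.50, and without both, a choice made after the values had been seen, it was -0.25. In each case it missed an unadjusted p of 0.05 in limma. It also did so without pigeon 451, 458, 514 or 515, at log2 fold changes of -0.65, -0.70, -0.69 and -0.60. The estimate was below 0 under each of the 22 alternatives, and the unadjusted p was under 0.05 in 8 of them. The pool with cuticulosomes of pigeon 435 was lowest of all in summed hair cell markers and highest in glia and myelin markers, and that of pigeon 450 had a hair cell sum of 5691 FPKM and the lowest relative depth. The part of these values in the AP3B2 difference was not tested.

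The other AP-3 genes showed no common direction, with 5 of the 7 gene models tested above 0 and 2 below. The medium subunit gene AP3M2 had its lowest, median and highest value at 9.13, 118 and 314 FPKM with cuticulosomes and at 23.8, 165 and 219 FPKM without. It was lower with cuticulosomes in 8 of 9 pigeons, the exception being pigeon 514, which also held the highest value, and the groups overlapped. Its log2 fold change was -0.38 ± 0.22 (SE, n = 9; limma adjusted p = 0.902). The small subunit genes AP3S1 and AP3S2 had means of 52.7 and 60.6 FPKM and log2 fold changes of -0.46 and 0.12. The δ subunit gene AP3D1 had 38.2 FPKM and a log2 fold change of 0.24, and AP3M1, the medium subunit made in all tissues of mammals, had 31.5 FPKM and 0.20. AP3B1, the widely made counterpart of AP3B2, had means of 8.65 FPKM (CLIV_009418) and 6.65 FPKM (CLIV_009417) in 2 neighbouring gene models.

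**Figure D3:**
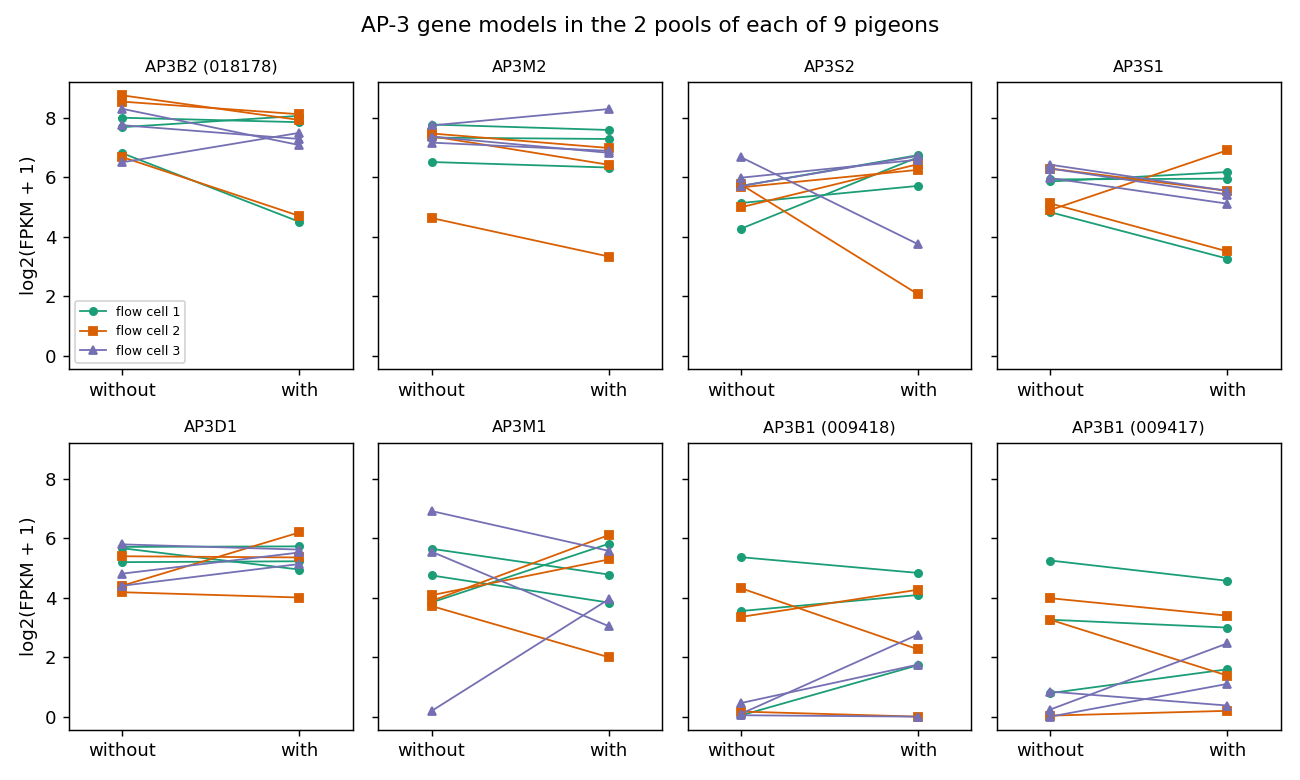
Levels of the 8 AP-3 gene models tested, as log2(FPKM + 1), in the pools without (left) and with cuticulosomes (right). Each line joins the 2 pools of 1 pigeon, and colour and marker give the flow cell. The AP3B2 (CLIV_018178) lines fall most steeply in pigeon 435 of flow cell 1 and pigeon 450 of flow cell 2, and the AP3M2 lines fall in 8 of 9 pigeons.

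AP-4 acts at the trans-Golgi network without clathrin and was the least abundant of the adaptors, with AP4S1 at 10.5, AP4B1 at 6.56 and AP4E1 at 6.01 FPKM. The small subunit gene AP4S1 had its lowest, median and highest value at 0.0468, 7.22 and 26.1 FPKM with cuticulosomes and at 0.191, 13.2 and 34.8 FPKM without. All 3 AP-4 genes had a log2 fold change below 0, with none past an unadjusted limma p of 0.05. For AP4S1 it was -0.68 (95% interval -1.95 to 0.59), for AP4B1 -0.87 (-2.35 to 0.61) and for AP4E1 -0.47 (-1.68 to 0.73), intervals among the widest of the members. The AP-4 values moved with the pigeons included. The log2 fold change of AP4B1 was -1.56 without pigeon 458 and -1.49 without flow cell 2, and that of AP4S1 was -1.39 without pigeons 435 and 450. Each of these 3 estimates passed an unadjusted limma p of 0.05, and none passed the adjusted threshold.

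Dynamins pinch the neck of a budding vesicle. DNM1, the dynamin of nerve terminals in mammals, had its lowest, median and highest value at 5.60, 26.1 and 52.8 FPKM with cuticulosomes and at 18.2, 24.3 and 54.1 FPKM without. The 2 groups overlapped, with the lowest pools in pigeons 435 and 515, both with cuticulosomes. Its log2 fold change was -0.38 ± 0.33 (SE, n = 9; limma adjusted p = 0.902), and it was lower with cuticulosomes in 7 of 9 pigeons. DNM2, the dynamin made in most mammalian tissues, averaged 2.07 FPKM and was at 0 in 9 libraries. The 3 neighbouring DNM3 gene models on scaffold 7 averaged 4.11 FPKM (CLIV_000206), 1.08 FPKM (CLIV_000204) and 0.927 FPKM (CLIV_000205).

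ARF GTPases recruit COPI, AP-1 and AP-3 to Golgi and endosomal membranes, and ARF6 acts at the plasma membrane. ARF1 was the highest, with its lowest, median and highest value at 122, 508 and 639 FPKM with cuticulosomes and at 316, 461 and 723 FPKM without. The ranges overlapped, and the pool with cuticulosomes of pigeon 450 lay apart at the low end. Its log2 fold change was -0.16 ± 0.18 (SE, n = 9; limma adjusted p = 0.912). ARF4 had a mean of 95.4 FPKM, ARF5 of 80.3, ARF6 of 28.5 and ARF3 of 1.78 FPKM, and the log2 fold changes of the 5 ARF genes lay between -0.35 and 0.11.

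COPI consists of 7 kinds of subunit, all of them found. COPE, the ε subunit gene and the highest of all members, had its lowest, median and highest value at 348, 556 and 1058 FPKM with cuticulosomes and at 263, 448 and 858 FPKM without. The ranges overlapped, the highest value being that of pigeon 450 with cuticulosomes. The log2 fold change of COPE was 0.23 ± 0.17 (SE, n = 9; 95% interval -0.12 to 0.58; limma adjusted p = 0.902), and COPE was higher with cuticulosomes in 5 of 9 pigeons. The δ subunit gene ARCN1 had a mean of 180 FPKM, the β′ subunit gene COPB2 of 121, the γ subunit gene COPG2 of 89.2 and the α subunit gene COPA of 87.8 FPKM. The β subunit gene COPB1 had 56.3, the other γ subunit gene COPG1 38.8 and the ζ subunit gene COPZ1 3.53 FPKM. Of the 8 COPI genes tested, 6 had a log2 fold change above 0. COPA, at -0.44 (95% interval -1.09 to 0.21), lay furthest from 0.

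COPII is assembled from the GTPase SAR1, the inner layer of SEC23 and SEC24, which binds cargo, and the outer cage of SEC13 and SEC31, with SEC16 as a scaffold at the exit sites. SAR1A had its lowest, median and highest value at 173, 265 and 368 FPKM with cuticulosomes and at 168, 251 and 451 FPKM without. These ranges overlapped throughout, and SAR1A had the log2 fold change with the smallest standard error of the members, -0.05 ± 0.16 (n = 9; 95% interval -0.39 to 0.30; limma adjusted p = 0.978). SEC13, which also belongs to the nuclear pore, was near it with a mean of 267 FPKM. The other COPII genes were much lower. SEC24D had 29.0 FPKM (CLIV_012395) and 13.5 FPKM (CLIV_012394) and SEC24C had 21.5 FPKM. The 2 gene models named SEC23A, on different scaffolds, had 20.6 FPKM (CLIV_000679) and 18.0 FPKM (CLIV_013150), and the 2 named SEC31A had 10.4 FPKM (CLIV_007277) and 10.2 FPKM (CLIV_009696). SAR1B averaged 14.9, SEC23IP 14.2, SEC24A 5.70, SEC24B 5.59 and SEC16A 3.01 FPKM. Of the 14 COPII gene models tested, 6 had a log2 fold change above 0 and 8 below, from -0.67 for SEC23A (CLIV_013150) to 0.73 for SEC31A (CLIV_007277).

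Several coats had a paralog that prevailed in hair cells of both kinds. For the 21 pairs of paralogs, each gene taken by its gene model with the highest mean, the difference of log2(FPKM + 1) was averaged over the 2 pools of a pigeon and tested over 9 pigeons by an exact permutation that flips signs (two-sided), in which the smallest p possible is 0.0039. After adjustment over the 21 pairs, 16 differed at 0.05, and in 9 pairs the order was the same in all 9 pigeons. ARF1 exceeded ARF3 in 18 of 18 libraries, by 7.73 on the log2 scale (SD 0.67 over 9 pigeons, exact adjusted p = 0.00911). SAR1A exceeded SAR1B in 18 of 18 libraries, by 4.28 (SD 0.93, exact adjusted p = 0.00911 over 9 pigeons). DNM1 exceeded DNM2 by 3.66 and DNM3 by 2.81, each in 18 of 18 libraries.

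The subunit isoforms that are neuronal in mammals prevailed in AP-3. AP3B2 exceeded AP3B1 in 17 of 18 libraries, with a difference of -5.17 for AP3B1 minus AP3B2 (SD 2.05 over 9 pigeons, exact adjusted p = 0.00911) and means that differed 23.4-fold. These values take AP3B1 by CLIV_009418 and leave out its neighbour CLIV_009417, which had a mean of 6.65 FPKM. AP3M2 exceeded AP3M1 in 17 of 18 libraries, with -2.47 for AP3M1 minus AP3M2 (n = 9 pigeons, exact adjusted p = 0.0189) and means that differed 4.50-fold. In COPI, COPG2 exceeded COPG1 in 15 of 18 libraries and by 2.30-fold in the means (exact adjusted p = 0.0189 over 9 pigeons). Among the SEC24 genes of the inner COPII layer, SEC24C and SEC24D each exceeded SEC24A and SEC24B, with means 3.76 to 5.20 times as high. The pairs that did not differ by this test were CLTA and CLTB (difference 0.18, SD 0.91, exact adjusted p = 0.578 over 9 pigeons), AP3S1 and AP3S2 (-0.10, SD 1.23, exact adjusted p = 0.836), SEC24A and SEC24B (-0.16, SD 0.68), SEC24C and SEC24D (-0.56, SD 1.31), and ARF4 and ARF5 (0.36, SD 1.14). When the gene models of a symbol were summed, SEC24D exceeded SEC24C (difference -1.13 for SEC24C minus SEC24D, exact adjusted p = 0.0410 over 9 pigeons) and AP1M1 no longer differed from AP1M2 (0.98, exact adjusted p = 0.0965 over 9 pigeons).

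**Figure D4:**
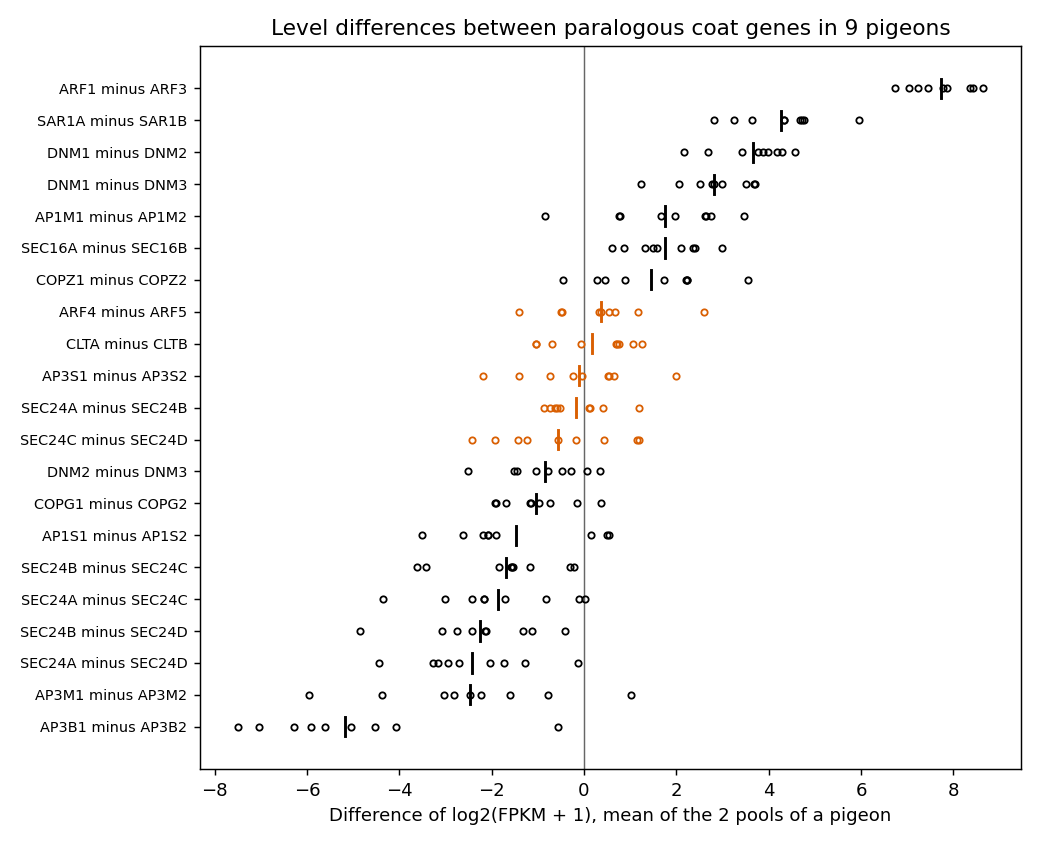
Difference of log2(FPKM + 1) between the first and the second gene of each of 21 paralog pairs, averaged over the 2 pools of a pigeon. Each circle is 1 of 9 pigeons and the vertical bar is their mean, in black for the 16 pairs past an adjusted exact p of 0.05 and in orange for the 5 others. The largest differences are those of ARF1 over ARF3 and of AP3B2 over AP3B1.

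The level of 1 of the 2 gene models of the clathrin heavy chain gene was low in all pools of some pigeons. CLTC (CLIV_012366) lay between 45.5 and 126 FPKM in the 6 libraries of flow cell 1 and between 2.01 and 19.8 FPKM in the 6 of flow cell 3, with no overlap. In flow cell 2, both pools of pigeon 450 were low, at 8.06 FPKM with and 17.6 FPKM without cuticulosomes, while the 4 pools of pigeons 451 and 458 lay between 91.7 and 137 FPKM. The low pools were thus those of pigeons 450, 513, 514 and 515, with and without cuticulosomes, and the other 10 pools were all higher. In a limma F test over the 3 flow cells on the pigeon means of log2(FPKM + 1), added after these levels had been seen, CLTC (CLIV_012366) was lower in flow cell 3 than in flow cell 1 by a log2 difference of -3.24 and than in flow cell 2 by -2.71 (limma adjusted p = 0.342, n = 3 pigeons per flow cell). The other CLTC gene model (CLIV_013160) overlapped between flow cells. It lay between 1.26 and 8.72 FPKM in flow cell 1, 0.0148 and 15.2 in flow cell 2, and 0 and 7.37 in flow cell 3 (limma F test, unadjusted p = 0.126).

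At an unadjusted p below 0.05, this limma test named 7 of 58 members and 996 (8.74%) of all gene models tested, and after adjustment 0 of 58 members and 0 of 11393 gene models (0%). Of the 7 members, 4 were lowest in flow cell 3, namely CLTC (CLIV_012366), SEC23A (CLIV_000679), SEC24C and SEC23IP. The 3 others, ARF1, ARF5 and SEC13, were highest there. Whatever the p, 26 of 58 members and 44.1% of all gene models tested were lower in flow cell 3 than in flow cells 1 and 2. A further 18 members and 24.9% of all gene models were higher there. For ARF1 flow cell 2 was lowest, at a mean of 340 FPKM, against 544 in flow cell 1 and 586 in flow cell 3. SEC24C, for example, averaged 35.2 ± 15.3, 22.2 ± 16.6 and 6.97 ± 4.82 FPKM in flow cells 1, 2 and 3 (SD, n = 6 libraries). SEC13 went the other way, with 188 ± 56.0, 252 ± 125 and 360 ± 40.6 FPKM. Leaving out pigeon 450 raised the number of members at an unadjusted limma p below 0.05 to 17, against 13.3% of all gene models tested, with 12 lower and 5 higher in flow cell 3 than in either of the others. CLTC (CLIV_012366) then passed the adjusted threshold (limma adjusted p = 0.00998), as did 0.492% of all gene models. This choice takes out the pigeon of flow cell 2 whose CLTC pools were low, and those levels had been seen beforehand. With any other single pigeon left out, 0 members passed the adjusted threshold. Without pigeon 433, 513, 514 or 515, the members at an unadjusted limma p below 0.05 fell to 4, 3, 4 and 3. The share of all gene models tested was then 7.99%, 6.79%, 6.05% and 6.17%.

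The 12 members lower in flow cell 3 without pigeon 450 were both CLTC gene models, both AP1M2 gene models, COPA, AP1G1, AP2A2, AP4E1, AP3B1 (CLIV_009418), SEC23A (CLIV_000679), SEC24C and SEC23IP. The 5 higher there were CLTB, COPE, SEC13, SAR1A and ARF5. How all gene models called without pigeon 450 split by direction is not given here. The summed supporting cell markers lay between 112 and 473 FPKM in flow cell 1, between 152 and 760 FPKM in flow cell 2 and between 435 and 1103 FPKM in flow cell 3, and their part in these levels was not tested. Each flow cell holds its own pigeons, so flow cell, pigeon and any step done per set of pigeons cannot be told apart. For the difference between the cell types, the interaction of cell type and flow cell had an unadjusted limma p below 0.05 in 0 of 58 members, against 4.55% of all gene models tested.

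**Figure D5:**
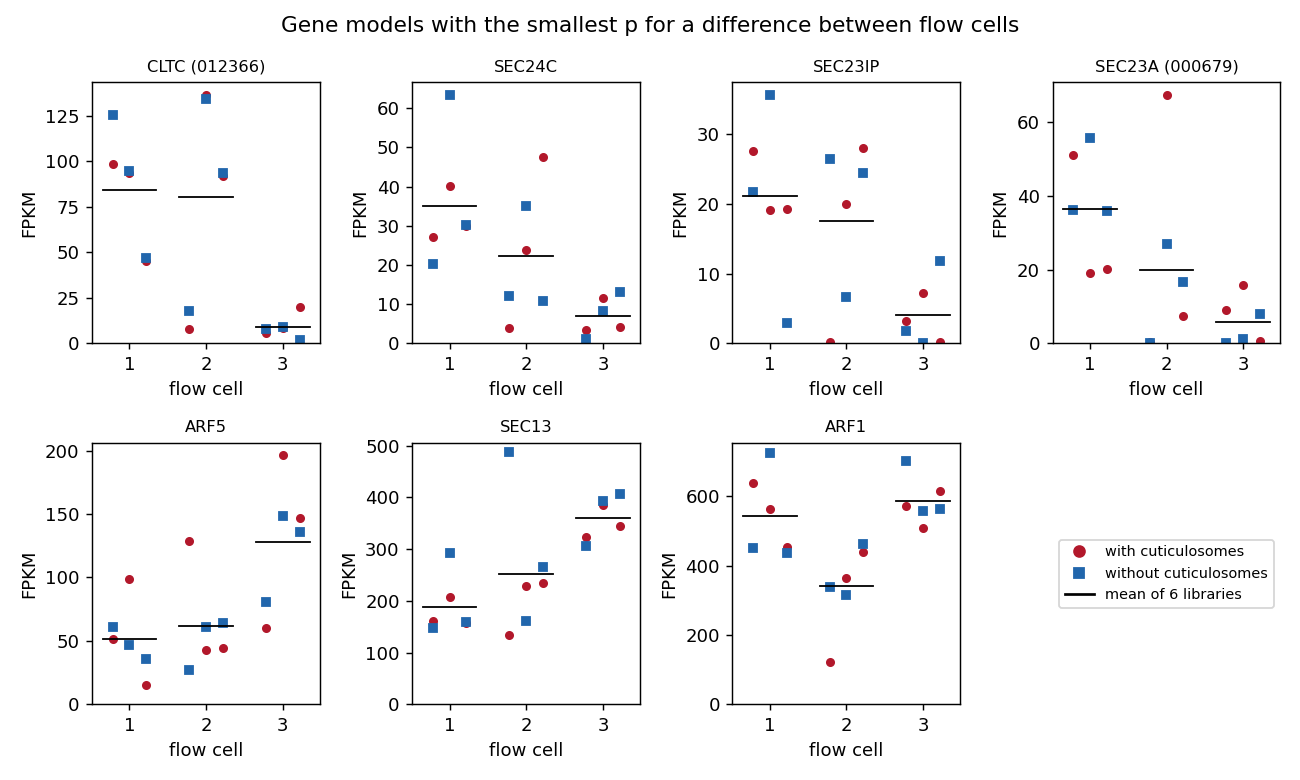
FPKM of the 7 members with an unadjusted limma p below 0.05 for a difference between flow cells. Red circles are pools with and blue squares pools without cuticulosomes, the 3 columns of points within a flow cell are its 3 pigeons, and the bar is the mean of 6 libraries. CLTC (CLIV_012366) is low in flow cell 3 and in pigeon 450, the first column of flow cell 2, whatever the cell type.

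Genes that work with these coats were followed through 3 lists of other genes, 78 symbols in all, of which 65 were matched and 66 gene models tested. At an unadjusted limma p below 0.05, 3.27% of all gene models tested were higher and 2.01% were lower with cuticulosomes. Of the 34 clathrin accessory and uncoating genes tested, 0 were higher and 1 was lower at that p. This was HIP1R (CLIV_001857), which links clathrin pits to actin, at 66.9 ± 40.5 FPKM in pools with and 91.6 ± 42.3 FPKM in pools without cuticulosomes (SD, n = 9), lower in 8 of 9 pigeons, and a log2 fold change of -0.55 ± 0.24 (SE; limma adjusted p = 0.902). Of the 19 ARF and COPI regulators and cargo receptors tested, 1 was higher and 0 were lower. This was TMED8, a relative of the p24 cargo receptors, with a mean of 2.39 FPKM, higher with cuticulosomes in 7 of 9 pigeons, and a log2 fold change of 1.17 ± 0.48 (SE, n = 9; limma adjusted p = 0.902). TMED8 was at 0 in 6 of 18 libraries. Of the 13 COPII regulators and cargo receptors tested, 0 were higher and 0 lower. No gene of the lists passed the adjusted limma threshold. The clathrin uncoating chaperone HSPA8 had a mean of 3326 FPKM, above that of every coat gene.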

How the data were processed

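RNA of 18 pools of 30 hair cells was sequenced after a full-length protocol with template switching and Tn5 fragmentation. The authors aligned 50-base single-end reads with TopHat 1.4.1, allowing 6 mismatches and 1 hit per read, to the pigeon genome, and estimated FPKM with Cufflinks 1.3.0 with bias correction. The deposited FPKM were used as they stand. The table also holds the authors' own DESeq2 comparison (mean signal, fold change, p-value), which was not used. Gene symbols come from the annotation in the table, and 49 of 52 member symbols were in the RefSeq names of the species. The members and lists were chosen with earlier results of these data known.

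Gene models with a mean FPKM above 1 were tested (11393) by limma 3.58.1 in R 4.3.3 on log2(FPKM + 1), so fold changes of low genes are understated, with the pigeon as a block, a variance trend, Benjamini-Hochberg adjustment and a threshold of 0.05. Both pools of a pigeon come from 1 animal, and their deviations from the group means correlated by 0.121 to 0.591 (median 0.183), against -0.0646 between pigeons. On simulated data for 11393 genes, limma called 57 of 200 genes given a log2 change of 2, and 3 unchanged genes. The simulated libraries were drawn independently and held no pigeon effect, unlike the paired pools. Values per library are given for members with an unadjusted p under 0.05 and as ranges for the highest member of each coat; AP3M2, AP1S2, AP4B1, COPA and AP3S1 were added after their values were seen. Single values were compared by exact sign-flip permutation over pigeons (Python 3.11.15, numpy 2.4.6, pandas 2.3.3, scipy 1.17.1). Relative depth came from the lowest values: 1364 of 10156 pairs of values under 0.1 FPKM were within 0.05 (log2) of equal, against 117 in a window between the steps. The test between flow cells, its settings, the interaction under other scalings, the fit without pigeons 435 and 450 and the depth were added after the data had been seen.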

Additional observations from a re-analysis of the deposited data

Results flagged for a closer look

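Among 26 sets of 9 pools tested for 1 value far from the rest, 4 held one. Chance gives about 1 in 20 such sets only where values are normally distributed, which was not tested for these FPKM. Each of the 4 values was the highest of its set. AP4S1 was 26.1 FPKM in the pool with cuticulosomes of pigeon 450, where the nearest other pool of the group had 12.2 FPKM. AP4S1 was also 34.8 FPKM in the pool without cuticulosomes of pigeon 434, where the nearest had 14.1 FPKM. COPE was 1058 FPKM in the pool with cuticulosomes of pigeon 450, against 703 FPKM in the nearest pool. COPA was 223.7 FPKM in the pool without cuticulosomes of pigeon 458, against 124 FPKM in the nearest.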

How the results depend on the processing

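No member and no gene model passed the adjusted limma threshold under any of the 22 alternatives. The number of members higher at an unadjusted p was 1 with upper quartile scaling (COPE), with no variance trend (AP1S2), without flow cell 2 (AP1B1), without flow cell 3 (COPE) and without pigeons 435 and 450 (AP1B1), and 0 to 1 when each pigeon was left out. The number lower was 0 with no filter on expression, with no replicate block, with the flow cell in place of the pigeon, with upper quartile scaling, with no variance trend and without flow cell 1, and 0 to 1 when each pigeon was left out; the member lower was not AP3B2 without pigeon 451 (AP3S1), 458 (AP4B1) or 514 (AP3M2), without flow cell 2 (AP4B1) and without pigeons 435 and 450 (AP4S1). Over all gene models tested, 366 were higher and 198 lower of 11393 at that p with no variance trend. Without flow cell 2 these were 369 and 157 of 11491, and without pigeons 435 and 450 they were 352 and 151 of 11054. Without pigeon 450, 451, 458 or 514, 396, 364, 365 and 387 gene models were higher and 191, 219, 228 and 241 lower. The gene models tested then numbered 11475, 11386, 11350 and 11422. The fit without the replicate block left the log2 fold change of AP3B2 (CLIV_018178) at -0.67 but past no threshold. Upper quartile scaling moved the median log2 fold change of all gene models by 0.14 and the share of higher among unadjusted calls from 61.9% (372 higher, 229 lower) to 86.1% (664 and 107), flow cell 3 left out to 48.3% (244 and 261); without the block the calls were 182 and 113. The number of paralog pairs past the adjusted threshold was 13 to 16 of 21 except with a flow cell left out, when it was 0, the smallest adjusted p being 0.0547; an exact p over 6 pigeons cannot go below 0.0312 before adjustment. Between flow cells, members at an unadjusted p numbered 2 (6.11% of all gene models) in the pools with and 5 (8.31%) in the pools without cuticulosomes alone, and 3 to 17 (6.05% to 13.3%) when each pigeon was left out, and 0 to 1 at an adjusted p. With median ratio scaling 1 of 58 members (COPE) had an interaction of cell type and flow cell at an unadjusted limma p below 0.05. The share of all gene models under that scaling is not given here. In the main fit that share was 4.55%, with 0 of 58 members. No value changed its sign past a threshold. The counting error of values is unknown.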
